A study of Mus musculus with 12 samples.

Results

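Poly(A)-selected mRNA of wild-type mouse embryonic stem (ES) cells was compared with that of Drosha-deficient ES cells, with 1 library of each genotype. A row of the deposited gene table entered the comparison where the authors' status column read OK and the larger of both values reached 1 FPKM, a level scaled to transcript length and library depth. Of 36883 rows, 16918 had that status and 14752 also reached the minimum. Of the 14752 measured rows, 11036 were single genes that the RefSeq gene table gives as protein-coding. The difference of a row was the log2 of the Drosha-deficient over the wild-type FPKM after adding 1 to each, and a row was called higher or lower where that difference reached 1 in size, which is 2-fold on this scale. With 1 library a genotype there was no replicate check and no test, so "higher" and "lower" describe these 2 libraries. Near the minimum, Ovol1 (0.491 and 1.001 FPKM) was kept, while Dcn at 0.0752 and 0.999 FPKM was not. Near the size rule, Efhd1 (2.31 and 5.61 FPKM) was called higher and Rfc4 (61.5 and 30.2 FPKM) was called neither. Both calls rest on the unrounded values, and the rounded ones printed here are too coarse to repeat them. Pairs of FPKM values are given with wild type first and the Drosha-deficient library second, and log2 differences are Drosha-deficient minus wild type.

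Both groups were ES cells cultured in DMEM with serum and LIF (leukemia inhibitory factor), the cytokine that keeps mouse ES cells dividing without differentiating, and the labels name no treatment. For the methylation samples of the series the labels give AB1 ES cells of strain 129Sv/Ev as wild type and as the source of the Drosha-deficient cells. The RNA labels say only wild type and Drosha-deficient. Not given in the sources used here are how Drosha was disrupted, whether feeder cells were present and whether the Drosha-deficient cells are 1 clone. The genotype and anything else that differed between both cultures or libraries cannot be told apart.

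Drosha is the nuclear ribonuclease that, with its partner Dgcr8, cuts hairpins out of long primary transcripts, and Dicer1 then trims these hairpins into microRNAs. MicroRNAs guide Argonaute proteins to complementary sites in mRNAs, which are then less stable or less translated. In ES cells the abundant microRNA families are known for their part in cell division, in differentiation and in the balance between self-renewal and exit from it. Drosha is also known to cut a few mRNAs directly, that of Dgcr8 among them.

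The Drosha gene (chr15:12824815-12935290, mm10/GRCm38) stood at 42.1 and 6.22 FPKM, 6.77-fold lower in the library labelled Drosha-deficient. Its transcript was lower and not absent, and which exons the remaining fragments cover is not shown by a gene-level value. All 10 ES cell markers checked were measured, and their levels summed to 2377 FPKM for wild type and 2529.6 FPKM for Drosha-deficient cells. Pou5f1, the central pluripotency factor, had 562 and 700.4 FPKM, Sox2 had 257 and 299.8 FPKM and Nanog had 192 and 207 FPKM. By the steps between the lowest values, 1 fragment on a transcript of 1 kb was worth an estimated 0.0464 FPKM (wild type) or 0.0413 FPKM (Drosha-deficient), which corresponds to depths of about 21500000 and 24200000 fragments. The libraries that the files call long RNA, 1 for each genotype, are set beside the mRNA values as another preparation and are not a biological replicate; they were matched to the labels' total RNA samples by elimination. Levels were not compared between the separately normalized tables.

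Of the 14752 measured rows, 16.6% were called, 8.64% as higher and 7.93% as lower. Among the 11036 protein-coding genes 12.0% were called, with 631 higher (5.72%) and 692 lower (6.27%), and their median log2 difference was 0.01. The other 3716 measured rows (pseudogenes, non-coding RNAs and rows with several gene names) were called in 30.2% of cases. For the protein-coding genes called higher, 589 of 597 that were measured in long RNA had a difference of the same sign there. For those called lower the count was 589 of 595. No protein-coding gene called in mRNA was called in the opposite direction in long RNA. The long RNA differences were often smaller in size: 267 of the 597 and 318 of the 595 also reached 2-fold there. The gene groups described are lists of known pathway or family members, and their counts are over the members that passed the minimum. A gene low in one library passed only through its level in the other. Some genes are in several groups, and some members are rows named as pseudogenes. The share called in a group is to be read beside the 12.0% of all protein-coding genes. Over the 3637 measured rows in at least 1 group it was 15.0%.

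**Figure D1:**
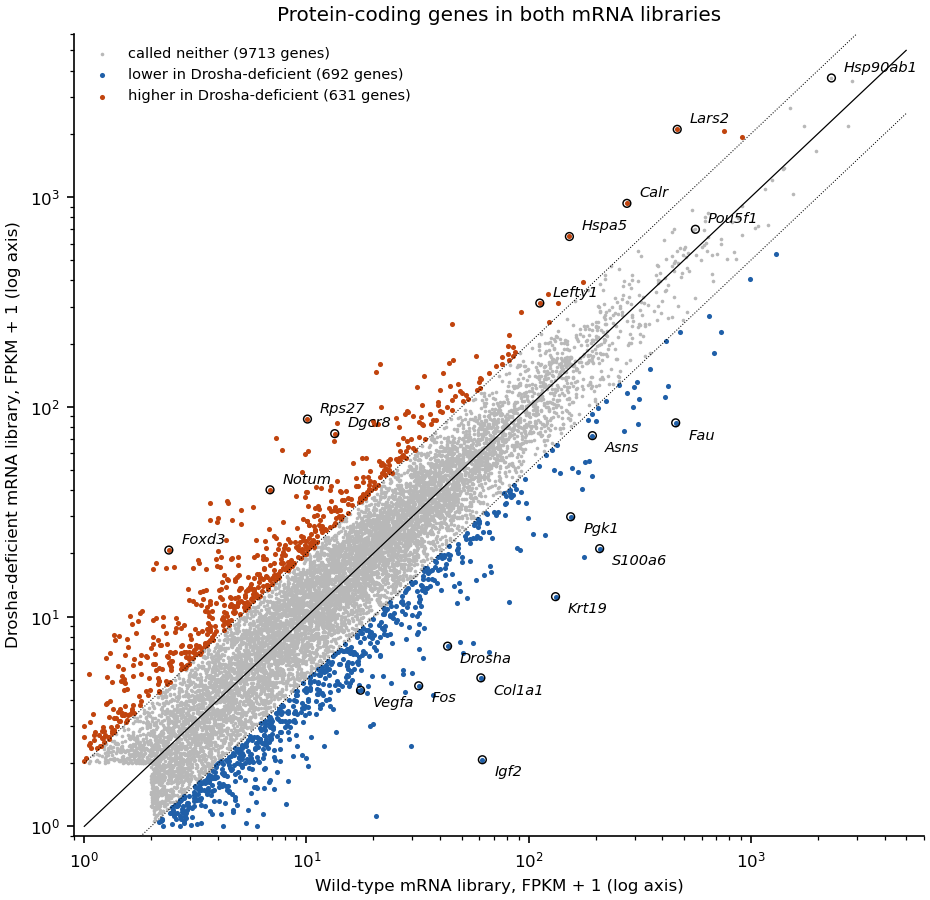
Each point is 1 protein-coding gene, with its wild-type mRNA level on the x axis and its Drosha-deficient mRNA level on the y axis, both as FPKM + 1 on log axes. The solid line marks equal levels, the dotted lines mark 2-fold, and colours mark the 631 genes called higher, the 692 called lower and the 9713 called neither. Named genes are circled; Igf2 lies farthest below the line of equal levels.

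The most abundant mRNAs differed little between both libraries. Eef1a1, the elongation factor that delivers aminoacyl-tRNA to the ribosome, was the most abundant in wild type at 2866 and 3566 FPKM. The ribosomal protein gene Rpl8 followed at 2726 and 2181 FPKM and the cytosolic chaperone gene Hsp90ab1 at 2304 and 3691 FPKM. Of the 10 protein-coding genes of highest wild-type level only Rplp2, a ribosomal stalk protein, was called, at 1299 and 534 FPKM. With the protein-coding genes in 5 classes of equal size by mean level, the share called was 14.2% and 15.1% in the 2 lowest classes and 8.47% in the highest.

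The largest differences were in genes of growth signalling, matrix and cytoskeleton on the lower side. The growth factor gene Igf2 (chr7:142650766-142670356), which is imprinted and expressed from the paternal allele, had the lowest difference, at 60.9 and 1.08 FPKM and -4.90 on the log2 scale. Both chains of type I collagen were among the 4 lowest, with Col1a2 at 19.6 and 0.116 FPKM and Col1a1 at 59.9 and 4.10 FPKM. Smooth muscle actin (Acta2) and the actin-binding protein gene Tagln also lay among the 15 lowest. The Tagln row overlaps other measured genes in the table, so its value is uncertain. The same holds for these called genes named in the text, whose rows also overlap others: Ankrd37, B2m, Cars, Ccnd1, Ccne2, Cnot6, Col4a2, Ddit3, Dnaja1, Dtx3, Erbb2, Fbxo15, Gnmt, Gpx2, Gstm5, Igfbp7, Kdm2b, Ltbp3, Ndufa4l2, Pcsk6, Psma3, Psmb8, Psmb9, Rpl3, Rpl31 and Wee1. The Gnmt row, with 11 such neighbours, has the most of them. The remaining genes of the 15 lowest, with Fabp3 and Sfmbt2 again in rows that overlap others, were Krt19, S100a6, Fabp3, Cisd3, Mrpl23, Rhox5, Sfmbt2, Fos, Anxa5 and Nupr1. Sfmbt2, a Polycomb-related gene, stood at 80.4 and 10.7 FPKM in mRNA, but its long RNA log2 difference was only -0.05.

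The 15 highest protein-coding genes were of mixed kinds, and several have near-identical copies. Foxd3, a transcription factor of the epiblast and neural crest, was at 1.40 and 19.7 FPKM. Wt1, the zinc finger factor of kidney and gonad development, was at 1.34 and 16.1 FPKM, and Btbd17 was at 1.03 and 15.8 FPKM. The RNA-binding protein gene Celf2 had the highest difference, at 6.30 and 70.1 FPKM, while its long RNA log2 difference was -0.20. Tmem38b, an endoplasmic reticulum cation channel gene, showed the same discord, at 20.5 and 158 FPKM in mRNA with a long RNA log2 difference of -0.55. Hspa1b, Dusp27, Rps27 and Rps29 were also among the 15. The remaining 6 were gene models of copied families (Gm5662, Gm20765, Gm6763, Gm21304, Gm21312 and Gm8764), whose reads can be shared between copies, so their single values are uncertain.

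Among the proteins of the microRNA pathway, 6 of 29 measured genes were higher and Drosha alone was lower. Dgcr8 (chr16:18239784-18289249) was 5.92-fold higher, at 12.4 and 73.5 FPKM; its row overlaps those of Trmt2a and Ranbp1. Among the Argonaute genes, Ago1 was higher, at 13.99 and 38.6 FPKM, while Ago2 had 14.4 and 21.3 FPKM. Its scaffold partners Tnrc6a and Tnrc6b, which recruit the deadenylation complex, were higher at 13.001 and 31.1 FPKM and 2.63 and 9.11 FPKM. The helicase gene Mov10 stood at 25.1 and 79.1 FPKM and Trim71, a stem cell RNA-binding protein and target of let-7, at 26.1 and 70.04 FPKM. Dicer1 had 16.6 and 26.04 FPKM and was called neither. Xpo5, which carries the hairpins out of the nucleus, had 31.2 and 41.2 FPKM, also neither. The median over the list was 0.26 in mRNA and 0.11 in long RNA.

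**Figure D2:**
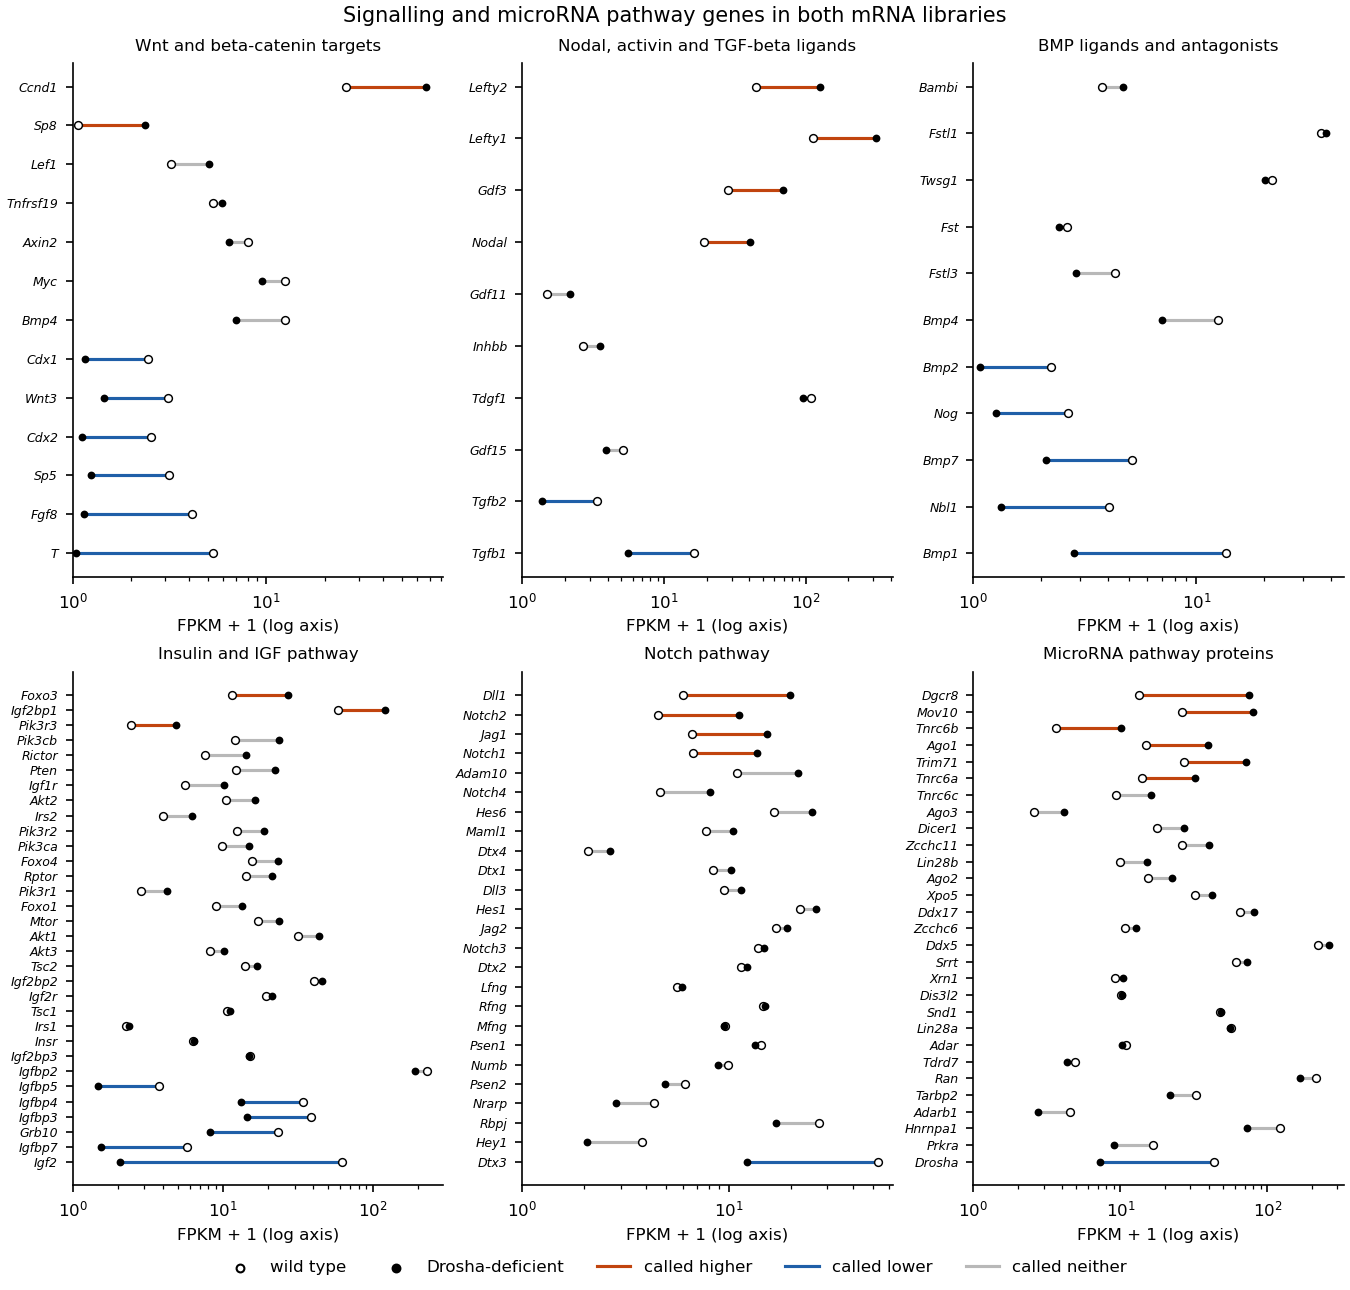
Each row is 1 measured member of 6 gene groups (canonical Wnt targets, Nodal and TGF-beta ligands, BMP ligands and antagonists, insulin and IGF genes, Notch genes, microRNA pathway proteins), ordered by log2 difference. Open circles are wild type and filled circles the Drosha-deficient library, as FPKM + 1 on a log axis, and the line is coloured where the gene was called. Lefty1 and Lefty2 lie to the right of their wild-type values, whereas Igf2, Tgfb1 and Bmp1 lie to the left.

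The ligands of the TGF-beta superfamily split by branch. Nodal signalling, which patterns the epiblast through SMAD2 and SMAD3 and induces its own antagonists, showed 4 higher and 2 lower genes among 10 measured of 18 listed ligands. The Nodal gene stood at 18.1 and 39.6 FPKM, and Gdf3, a Nodal-related ligand of pluripotent cells, at 27.3 and 67.8 FPKM. The antagonists Lefty1 and Lefty2 reached 111 and 311 FPKM and 43.5 and 125 FPKM. All 4 were higher, whereas the coreceptor gene Tdgf1 had 107 and 93.95 FPKM. The TGF-beta ligands proper were lower, with Tgfb1 at 15.3 and 4.62 FPKM and Tgfb2 at 2.36 and 0.370 FPKM. Of 16 measured receptor, SMAD and processing genes of this branch only the protease gene Pcsk6, which activates Nodal-type precursors, was higher (5.20 and 14.3 FPKM) and the latency protein gene Ltbp3 lower (2.34 and 0.494 FPKM).

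The bone morphogenetic protein (BMP) branch, which with LIF sustains mouse ES cells in culture, had 5 of 11 measured ligands and antagonists lower and none higher, with a median of -0.83. Bmp7 was at 4.12 and 1.11 FPKM, Bmp2 at 1.22 and 0.0658 FPKM and the antagonist gene Nog at 1.65 and 0.259 FPKM. Bmp1, which is a procollagen protease in spite of its name, stood at 12.6 and 1.83 FPKM. Bmp4, the main ligand of the culture state, was at 11.4 and 5.996 FPKM and called neither. Further down the pathway the genes were similar in both libraries: Id1 and Id3, the immediate targets of BMP signalling, had 42.1 and 35.9 FPKM and 50.04 and 40.8 FPKM. Only Dusp9, a phosphatase gene induced by BMP in ES cells, was called among 14 measured receptors, SMADs and targets, at 41.4 and 16.8 FPKM.

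Wnt proteins stabilise beta-catenin, which then activates targets with TCF factors. Of 13 measured targets (18 listed) 6 were lower and 2 higher, with a median of -0.83. Bmp4, called neither, is counted here too, and its difference is the median of both this group and the BMP ligands and antagonists. The mesoderm factor T was at 4.33 and 0.0387 FPKM and Fgf8 at 3.13 and 0.148 FPKM. Cdx1, Cdx2, Sp5 and Wnt3 were also lower, each from a wild-type level of at most 2.13 FPKM. The targets with general use were not called lower: the cyclin gene Ccnd1 was higher, at 24.7 and 65.5 FPKM, while Myc had 11.4 and 8.46 FPKM and Axin2 had 7.002 and 5.43 FPKM, both called neither. Several of the lower targets are at once genes of the primitive streak, the source of mesoderm. The secreted antagonists Notum and Sfrp1 were higher. Notum, a deacylase that inactivates Wnt proteins, was at 5.85 and 39.2 FPKM and Sfrp1, a Wnt-binding decoy, at 6.52 and 21.1 FPKM. Of the receptors, the R-spondin receptor gene Lgr4 was higher, at 18.2 and 41.5 FPKM, and so was Ror1, at 0.221 and 1.83 FPKM. Among 6 measured Wnt ligands Wnt3 alone was called.

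Fibroblast growth factor (FGF) signalling through ERK moves ES cells out of the naive state. Its main ligand in ES cells, Fgf4, was higher at 52.1 and 108 FPKM. Fgf15 was higher at 3.34 and 12.8 FPKM and Fgf5, a marker of the primed epiblast, at 0.641 and 2.56 FPKM. Fgf8, Fgf11, the receptor gene Fgfr4 and Fgfbp3 were lower, each from under 4 FPKM, and Fgfr1, the main receptor, had 49.4 and 54.8 FPKM. The ERK targets gave no single direction. The ETS factor gene Etv5 was higher at 44.1 and 95.97 FPKM, but its relative Etv4 was lower at 21.5 and 7.996 FPKM, as were the phosphatase gene Dusp4 at 14.3 and 4.64 FPKM and Phlda1. Spry2, the feedback inhibitor, had 26.8 and 27.1 FPKM.

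Genes that respond within minutes to growth factors or stress were lower in part. Fos stood at 30.99 and 3.68 FPKM and Fosb at 6.13 and 0.509 FPKM. Ier3, Maff and Junb were lower too, so that 5 of 24 measured immediate early genes were lower and 1 higher, with a median of -0.38. The higher one was Klf2, which is also a naive pluripotency factor, at 175 and 393 FPKM. Ier2 had 85.5 and 125 FPKM and was called neither. In the LIF and STAT3 pathway the feedback inhibitor gene Socs3, a direct STAT3 target, was lower at 22.8 and 9.07 FPKM, and the receptor gene Lifr was higher at 9.73 and 21.2 FPKM. Stat3 itself had 33.1 and 25.8 FPKM, and 23 of the 26 measured genes of that pathway were called neither.

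In the insulin and insulin-like growth factor (IGF) group the lower members were led by secreted proteins. Beside Igf2, the binding protein genes Igfbp3 (37.8 and 13.5 FPKM) and Igfbp7 (4.80 and 0.547 FPKM) were lower, and so were Igfbp4 and Igfbp5, which are named after their values were seen. Igfbp2, the most abundant of them, had 226 and 188 FPKM. Grb10, an imprinted adaptor that restrains the receptors, was lower at 22.1 and 7.21 FPKM. The transcription factor gene Foxo3, which the pathway keeps out of the nucleus, was higher at 10.4 and 26.2 FPKM. Igf2bp1, an mRNA-binding protein and target of let-7, was higher at 57.6 and 119 FPKM. The median over 32 members was 0.46 in mRNA but 0.02 in long RNA.

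Notch signalling passes between neighbouring cells and drives Hes genes. The ligand genes Dll1 (5.01 and 18.7 FPKM) and Jag1 (5.66 and 14.4 FPKM) were higher, as were the receptor genes Notch1 (5.69 and 12.8 FPKM) and Notch2 (3.53 and 10.3 FPKM). The target gene Hes1 had 21.1 and 25.4 FPKM and the shared transcription factor gene Rbpj 26.6 and 15.9 FPKM, both called neither. Dtx3 was lower at 51.999 and 11.3 FPKM. In the retinoic acid group, where binding proteins and dehydrogenases control the ligand, 5 of 16 genes were lower, among them the binding protein gene Crabp1 at 32.9 and 7.84 FPKM and the degrading enzyme gene Cyp26a1 at 1.60 and 0.247 FPKM. The receptor gene Rarg was higher at 26.2 and 57.7 FPKM. Hedgehog genes were called once in 14, for the antagonist gene Hhip at 0.309 and 5.67 FPKM. Among 15 measured receptor tyrosine kinases Erbb3 (6.89 and 20.2 FPKM) and Erbb2 (3.27 and 8.54 FPKM) were higher and Axl was lower, at 8.87 and 2.74 FPKM. Ankrd1, a target of the YAP coactivator, was lower and listed at 0 in the Drosha-deficient library (3.22 FPKM in wild type), whereas Yap1 had 34.8 and 64.9 FPKM.

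**Figure D3:**
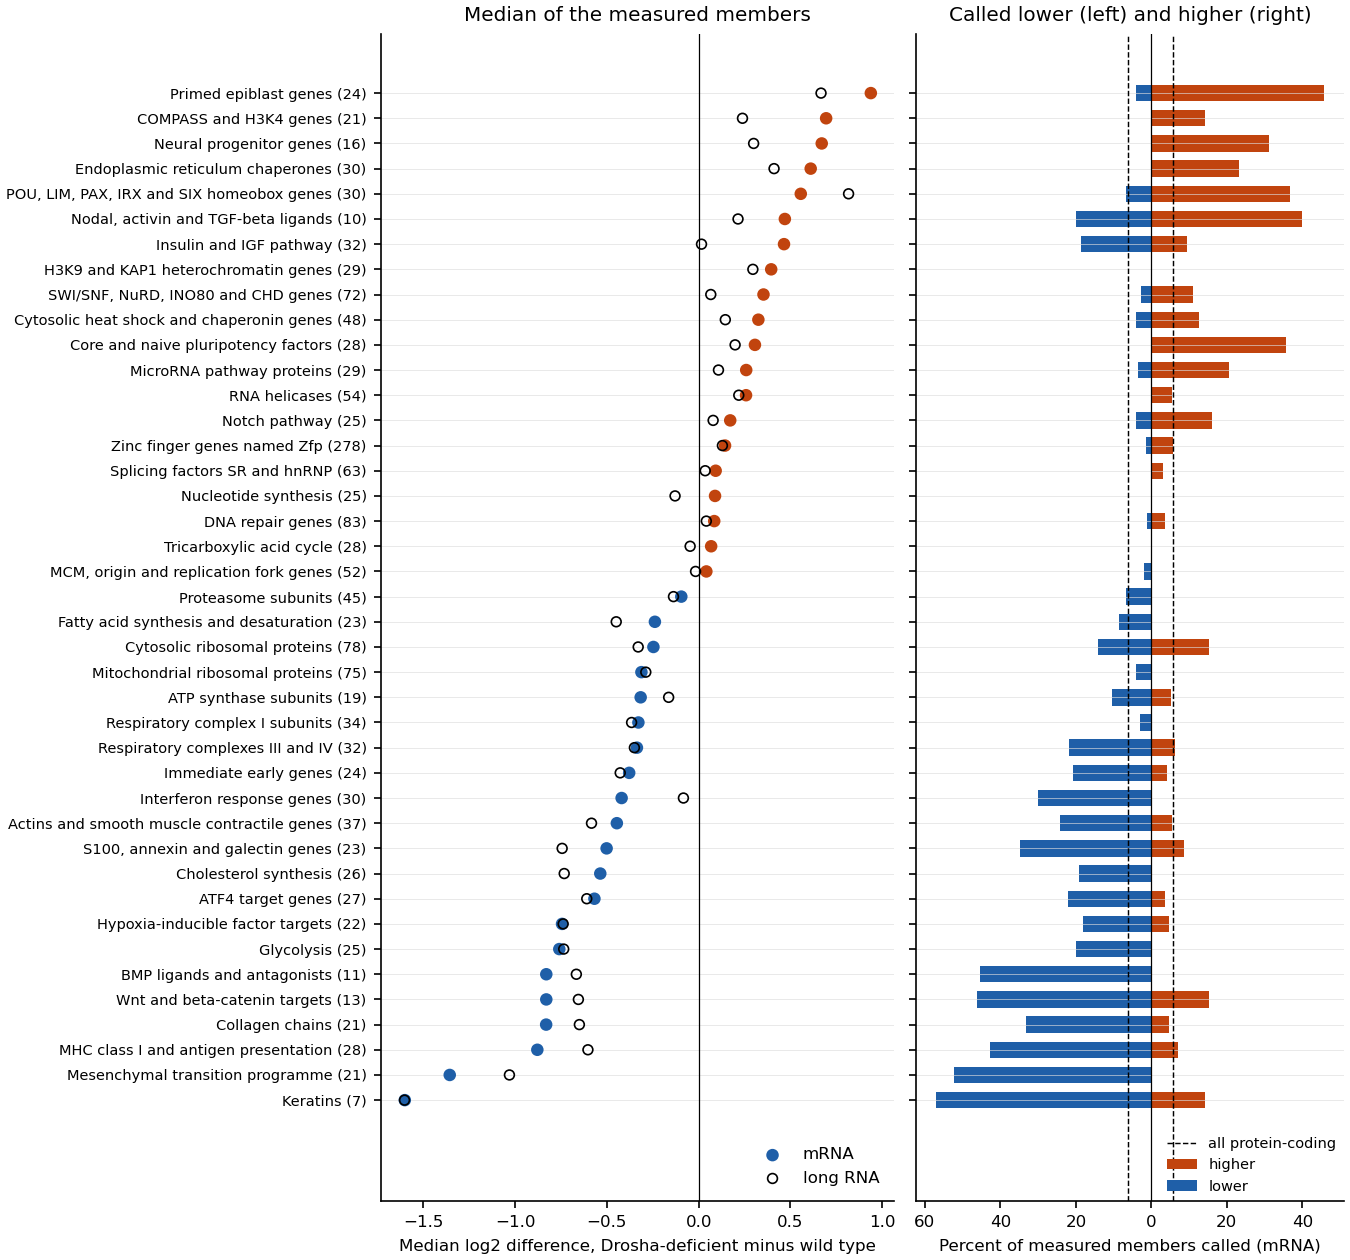
For a choice of gene groups, with the number of measured members in brackets, the left panel gives the median log2 difference in mRNA (filled) and in long RNA (open). The right panel gives the percent of members called lower (to the left) and higher (to the right) in mRNA, and the dashed lines mark the shares of all protein-coding genes, 6.27% and 5.72%. Keratins, with a median of -1.60, lie at the bottom and primed epiblast genes, with 0.94, at the top.

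Genes of a mesenchymal transition, in which epithelial cells take on matrix-secreting and migratory traits, had the largest share of lower members among the groups with more than 20 measured genes shown in the plot of group medians. Of 21 measured of 28 listed genes, 11 were lower and none higher, with a median of -1.36 (long RNA -1.03). Besides type I collagen, Acta2 and Tagln, 3 genes named after their values were seen show the range. The hyaluronan receptor gene Cd44 was lower at 4.94 and 0.300 FPKM, and the matrix protein genes Thbs1 and Tgfbi were lower at 27.4 and 10.1 FPKM and 6.62 and 1.58 FPKM. Postn, another matrix gene, was lower at 2.03 and 0.0147 FPKM. The most abundant genes of the group were not called: the fibronectin gene Fn1 had 209 and 179 FPKM, the osteopontin gene Spp1 148 and 262 FPKM and the vimentin gene Vim 154 and 90.5 FPKM.

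Markers of fibroblasts share members with this group, so they are not a separate result. The summed level of the 10 fibroblast markers was 95.6 FPKM for wild type against 13.6 FPKM for the Drosha-deficient library. Of the 7 measured ones 4 were lower, the matrix genes Col1a1, Col1a2, Col3a1 and Postn. Most of the wild-type sum came from Col1a1 (59.9 and 4.10 FPKM) and Col1a2 (19.6 and 0.116 FPKM), both also in the mesenchymal group. Thy1 (8.03 and 3.65 FPKM), Pdgfrb (2.34 and 1.06 FPKM) and Twist1 were called neither. Lum, a fibroblast proteoglycan gene, was at 0 in wild type, and Twist1 had 1.68 and 3.56 FPKM. In bulk RNA, fewer cells of a type and less RNA per cell cannot be told apart. Summed markers of trophoblast (15.5 and 7.74 FPKM), mesoderm (6.58 and 1.92 FPKM) and primitive endoderm (10.5 and 5.03 FPKM) were low in both libraries, and those of neural cells were 8.54 and 20.01 FPKM. Of their defining markers, Tpbpa was at 0 in both libraries, Afp and Ttr were at 0 in the Drosha-deficient library, and Hand2 and Dcx in wild type. The part of these cell types in the lower matrix genes was not tested.

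Of 21 measured (of 44 listed) collagen chains 7 were lower and 1 was higher, with a median of -0.83. The lower chains Col3a1, Col4a5, Col26a1 and Col9a3 passed the minimum only through low wild-type levels. Col4a5 had 1.95 and 0.233 FPKM, Col26a1 1.73 and 0.338 FPKM and Col9a3 1.71 and 0.315 FPKM. The Col9a3 row overlaps that of Tcfl5. The higher chain, Col6a6 (0.0610 and 1.51 FPKM), passed only through the Drosha-deficient library. Col3a1, a fibrillar chain, was at 1.80 and 0.0573 FPKM, and Col4a2, a basement membrane chain, at 6.60 and 2.19 FPKM. The collagen Col18a1, also of basement membranes, had 40.6 and 78.4 FPKM and was called neither. The enzymes that process collagen did not follow as a group: Loxl2, which cross-links it, was lower at 8.84 and 2.38 FPKM. Crtap (20.2 and 54.1 FPKM) and Pcolce2 (8.84 and 35.95 FPKM), which assist in prolyl hydroxylation and in procollagen cleavage, were higher. Among 23 laminins and other basement membrane genes, Nid1 was higher at 16.8 and 35.3 FPKM. In the group of matrix proteases and inhibitors 4 of 25 genes were lower and none higher, so 16% were called, against 12.0% of all protein-coding genes. The plasminogen activator genes Plau (3.49 and 0.454 FPKM) and Plat (2.30 and 0.592 FPKM) and the gelatinase gene Mmp9 (4.14 and 0.954 FPKM) were among the lower ones.

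Keratins, the intermediate filaments of epithelia, were lower for the pairs of simple epithelia. Krt19 stood at 131 and 11.4 FPKM, Krt18 at 118 and 23.6 FPKM, Krt8 at 27.9 and 7.92 FPKM and Krt7 at 4.68 and 0.872 FPKM. Krt8 and Krt18 have many processed copies, so their values are uncertain. Krt17, a keratin of stratified epithelia, was higher at 4.94 and 22.1 FPKM. Only 7 of 47 keratin genes reached 1 FPKM, with a median of -1.60; over the 12 with the authors' status OK and no minimum it was 0.12. The junction genes Cldn6 (57.4 and 23.3 FPKM) and Cldn7 (38.001 and 15.7 FPKM) were lower too. E-cadherin (Cdh1), the adhesion molecule of ES cell colonies, had 133 and 215 FPKM and the epithelial adhesion gene Epcam 151 and 161 FPKM, both called neither. P-cadherin (Cdh3) was higher, at 26.6 and 56.8 FPKM.

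Calcium- and lipid-binding proteins under the membrane also leaned lower. Of 23 measured S100, annexin and galectin genes, 8 were lower. S100a6 stood at 208 and 20.1 FPKM, the annexin gene Anxa5 at 48.1 and 6.57 FPKM and the galectin gene Lgals1 at 166 and 47.8 FPKM. Lgals4 (1.27 and 8.90 FPKM) and Lgals9 (5.36 and 18.4 FPKM), galectins of epithelial and immune cells, were the 2 higher ones. In the contractile apparatus 9 of 37 genes were lower, with the tropomyosin genes Tpm1 at 295 and 98.7 FPKM and Tpm2 at 31.2 and 11.5 FPKM. The cytoplasmic actins were the 2 higher members, with Actb at 756 and 2063 FPKM and Actg1 at 49.6 and 106 FPKM. For Actb the long RNA log2 difference was 0.41, against 1.45 in mRNA. Actin regulators were called about evenly, with 4 higher and 4 lower of 58; the severing protein gene Gsn had the largest difference, at 32.4 and 5.32 FPKM.

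Glycolysis, which breaks glucose down to pyruvate and lactate, had differences below 0 at most of its steps. Of 25 genes, all measured, 5 were lower and none higher, only 5 had a difference above 0, and the median was -0.76 (long RNA -0.73). The 3 most abundant genes were below the size rule, with the pyruvate kinase gene Pkm at 1081 and 729 FPKM, Aldoa at 852 and 508 FPKM and the lactate dehydrogenase gene Ldha at 561 and 329.9 FPKM. Gpi1, the second step of the pathway, was lower at 205 and 97.9 FPKM. The neuronal isoforms of aldolase and enolase were lower as well, with Aldoc at 62.1 and 14.8 FPKM and Eno2 at 7.90 and 2.56 FPKM.

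Pgk1 and Pgam1, which catalyse 2 consecutive later steps, were lower at 154 and 28.9 FPKM and 178 and 53.7 FPKM. Both have retrocopies in the table, named after their values were seen, that were higher: Pgk1-rs7 at 19.7 and 48.5 FPKM, Pgam1-ps1 at 2.21 and 22.6 FPKM and Pgam1-ps2 at 36.6 and 123.6 FPKM. Reads of such copies can be assigned to either gene. Added up with its copies, Pgk1 went from 173 to 77.4 FPKM, a log2 difference of -1.15, and Pgam1 from 217 to 199.9 FPKM, a difference of -0.12. The lower value of Pgam1 alone is therefore uncertain, and that of Pgk1 was smaller on the sum. Gapdh, for which the genome also holds many copies, had 33.9 and 32.03 FPKM and was called neither.

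Genes known to be induced by hypoxia-inducible factor (HIF), several of them glycolytic, showed a similar picture. Of 22 measured 4 were lower and 1 higher, with a median of -0.74 in both mRNA and long RNA. The angiogenic factor gene Vegfa was lower at 16.5 and 3.45 FPKM, the mitophagy receptor gene Bnip3 at 56.6 and 22.7 FPKM and Bhlhe40 at 23.4 and 8.92 FPKM. Ankrd37 was lower at 21.4 and 9.87 FPKM. The one higher gene was the HIF subunit gene Epas1, at 2.92 and 17.8 FPKM, while Hif1a had 24.002 and 45.1 FPKM. The glucose transporter gene Slc2a1 had 277 and 254 FPKM, also called neither.

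The promoters of Pgk1 and Bnip3 are shown because both were lower and carry ACGTG, the core of the HIF binding motif, in the 250 bases before the RefSeq start (GRCm38.p6). ACGTG was searched on both strands and matches are in capitals. In Pgk1 (chrX:106186850-106187099, plus strand) there were 2 matches, the first 150 and the second 131 bases before the start. In Bnip3 (chr7:138909507-138909756, minus strand) the 2 matches lie on opposite strands and overlap.
Pgk1: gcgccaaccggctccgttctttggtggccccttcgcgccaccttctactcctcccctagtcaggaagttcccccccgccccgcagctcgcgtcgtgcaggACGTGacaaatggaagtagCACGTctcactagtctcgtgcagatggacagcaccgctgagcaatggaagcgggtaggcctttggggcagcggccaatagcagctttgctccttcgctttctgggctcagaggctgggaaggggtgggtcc
Bnip3: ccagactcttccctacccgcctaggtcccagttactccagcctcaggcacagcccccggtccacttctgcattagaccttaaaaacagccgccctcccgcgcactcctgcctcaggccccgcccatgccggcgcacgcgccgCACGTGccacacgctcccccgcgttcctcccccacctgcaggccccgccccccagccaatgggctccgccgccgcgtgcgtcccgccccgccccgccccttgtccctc
The motif was present for 13 of 18 measured HIF targets that have a promoter in the table (72.2%) and for 12 of 24 glycolysis genes, against 18.5% of all genes. Among the HIF targets the median log2 difference was -0.77 with the motif and -0.76 without it. Among the glycolysis genes it was -0.49 with and -0.79 without. The other form of the HIF core, GCGTG, was present for 12 of the 18 HIF targets and 16 of the 24 glycolysis genes, against 30.9% of all genes, with medians of -0.81 and -0.49. A match is a string in the sequence and not a measured binding site. In these and the later motif counts the group shares are over measured genes. All genes means the 27025 with a promoter, measured here or not. The sets were not matched for level or for CG dinucleotides in the promoter, and the part of these in the gap between the shares was not tested.

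**Figure D4:**
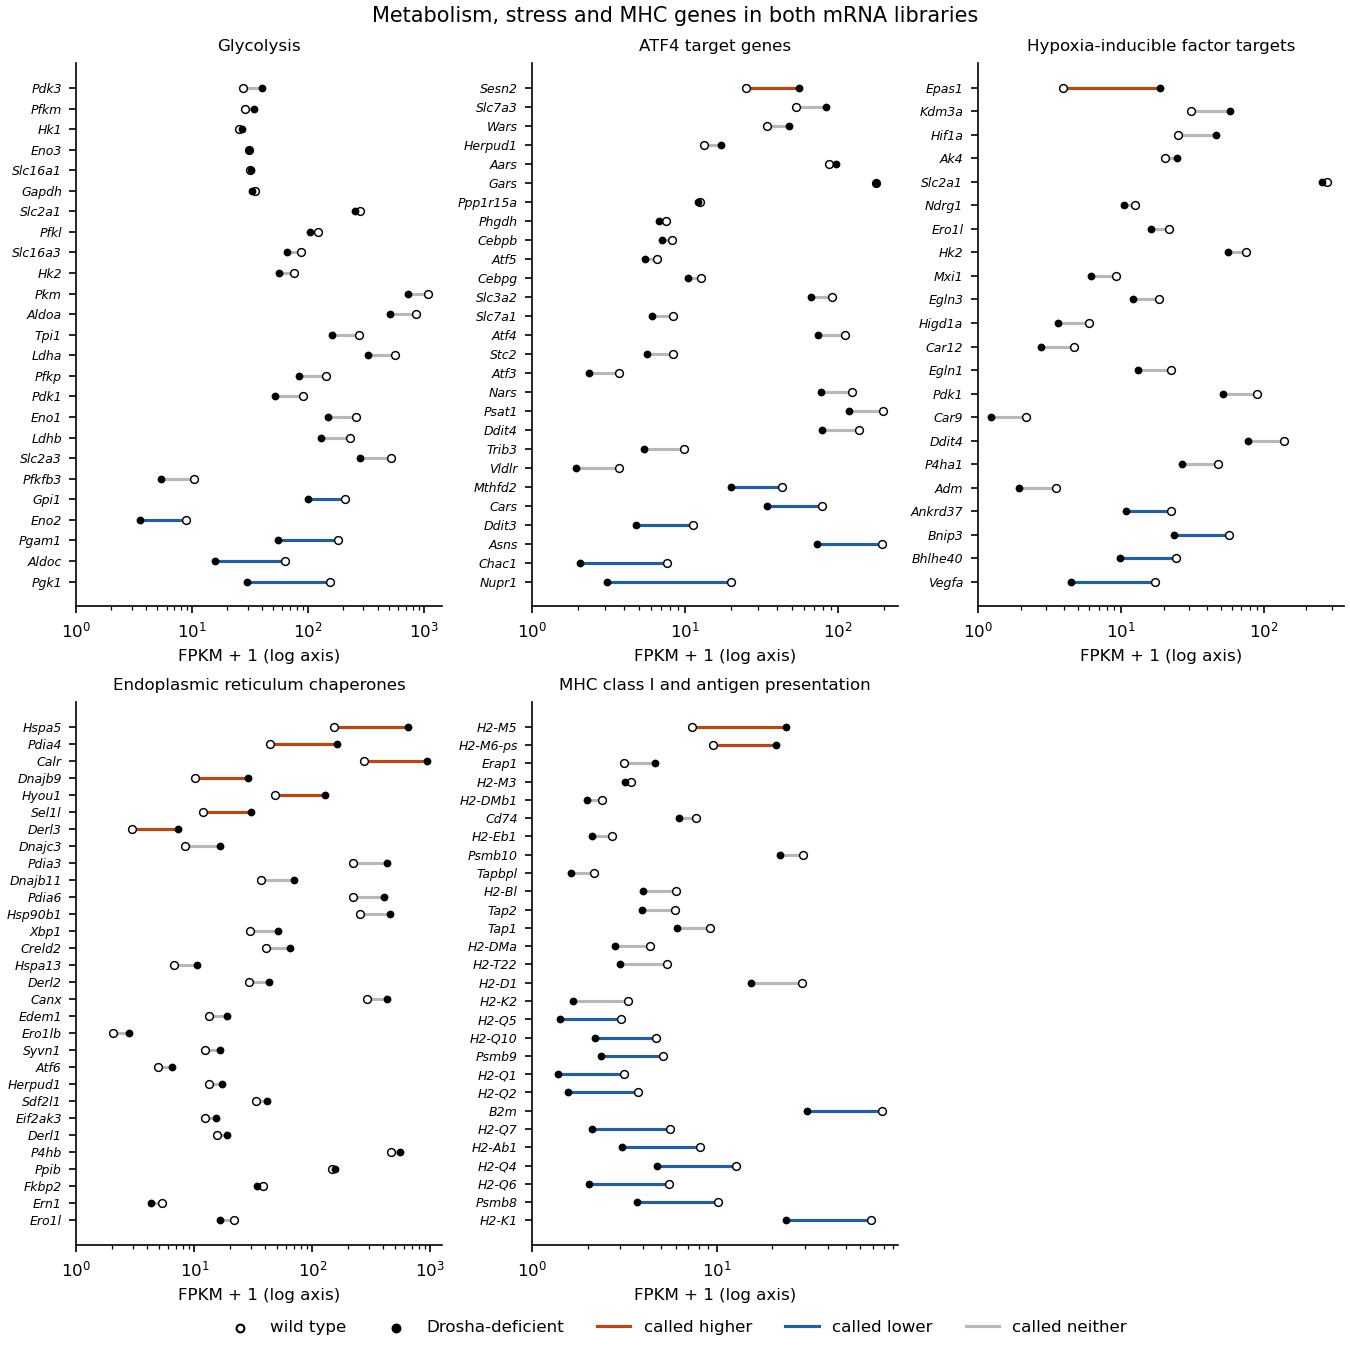
Each row is 1 measured member of 5 gene groups (glycolysis, ATF4 targets, hypoxia-inducible factor targets, endoplasmic reticulum chaperones, MHC class I and antigen presentation), ordered by log2 difference. Open circles are wild type and filled circles the Drosha-deficient library, as FPKM + 1 on a log axis, with coloured lines for called genes. Most filled circles lie left of the open ones in every panel except that of the endoplasmic reticulum chaperones, where Hspa5 and Calr lie far to the right.

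Cholesterol synthesis is run by enzymes that the SREBP2 factor controls as a unit. Of 26 measured genes 5 were lower and none higher, only 4 lay above 0, and the median was -0.54 in mRNA and -0.73 in long RNA. The sterol oxidase gene Msmo1 stood at 155 and 50.1 FPKM, the isomerase gene Idi1 at 28.7 and 9.17 FPKM and Pmvk of the mevalonate steps at 48.9 and 18.3 FPKM. Dhcr7, the last enzyme of the path, was lower at 64.1 and 29.7 FPKM and Lss, which closes the sterol rings, at 28.8 and 13.3 FPKM. Hmgcs1, an early enzyme of the path, had 153 and 86.3 FPKM and was called neither. In fatty acid synthesis only the desaturase genes Scd1 (38.1 and 18.3 FPKM) and Scd2 (191 and 91.8 FPKM) were lower of 23, and the synthase gene Fasn had 110.5 and 197 FPKM.

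Targets of ATF4, the factor that answers amino acid shortage and other stress, had 6 lower and 1 higher among 27 measured genes, with a median of -0.57 (long RNA -0.61). Asns, the asparagine synthetase gene, was lower at 193 and 71.8 FPKM. Chac1, which degrades glutathione, was lower at 6.63 and 1.05 FPKM, Nupr1 at 18.9 and 2.09 FPKM and the stress factor gene Ddit3 at 10.3 and 3.80 FPKM. The cysteinyl-tRNA synthetase gene Cars and the mitochondrial folate enzyme gene Mthfd2 were lower at 77.3 and 33.2 FPKM and 42.3 and 18.9 FPKM. Sesn2, an inhibitor of growth signalling that several stress factors induce, was higher at 24.2 and 55.1 FPKM. Of the other abundant members, Psat1 of serine synthesis had 196 and 118 FPKM and the glycyl-tRNA synthetase gene Gars had 177 and 178 FPKM. Atf4 itself had 109.6 and 73.6 FPKM.

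The promoters of Asns (chr6:7693210-7693459, minus strand) and Chac1 (chr2:119350992-119351241, plus strand) are shown as lower ATF4 targets that hold TGATGNAA, the core of the C/EBP-ATF element, with N for any base. The match is in capitals and begins 23 bases before the start in Asns and 193 bases before it, on the other strand, in Chac1.
Asns: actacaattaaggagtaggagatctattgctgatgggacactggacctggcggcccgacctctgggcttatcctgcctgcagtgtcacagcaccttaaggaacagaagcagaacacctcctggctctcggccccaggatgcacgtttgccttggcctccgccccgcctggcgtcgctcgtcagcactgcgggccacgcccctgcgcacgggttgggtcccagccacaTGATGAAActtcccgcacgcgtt
Chac1: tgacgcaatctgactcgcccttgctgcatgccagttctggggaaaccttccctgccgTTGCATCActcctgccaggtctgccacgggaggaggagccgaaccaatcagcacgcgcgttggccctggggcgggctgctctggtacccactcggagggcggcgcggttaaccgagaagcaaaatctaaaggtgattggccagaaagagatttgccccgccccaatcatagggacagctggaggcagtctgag
This string was present for 8 of 23 ATF4 targets with a promoter (34.8%), against 3.91% of all genes. The 8 genes had a median log2 difference of -0.81 and the 15 without it -0.47. The 8 were not of 1 direction, since 3 of them, Gars among them, lay above 0.

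The chaperones of the endoplasmic reticulum (ER), which fold secreted and membrane proteins and are induced by unfolded protein there, leaned higher. Of 30 measured genes 7 were higher and none lower, 27 lay above 0, and the median was 0.61 (long RNA 0.41). Hspa5, the central ER chaperone also called BiP, stood at 152 and 647 FPKM and was 4.27-fold higher. Calr, the calcium-binding lectin chaperone, was at 276 and 932 FPKM, and added up with its copy Calr-ps it went from 289.5 to 968 FPKM. The disulfide isomerase gene Pdia4 was at 42.7 and 161 FPKM.

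Hyou1 (47.3 and 127 FPKM) and Dnajb9 (9.06 and 27.6 FPKM), partners of Hspa5, were higher as well. Sel1l (10.9 and 29.1 FPKM) and Derl3 (1.98 and 6.21 FPKM) of the degradation path out of the ER were also higher. The partner lectin gene Canx had 291 and 425 FPKM and the isomerase gene P4hb had 466 and 552 FPKM, both called neither. Of the 3 sensors of ER stress, Ern1 had 4.27 and 3.28 FPKM, Atf6 had 3.90 and 5.41 FPKM and Eif2ak3 had 11.4 and 14.3 FPKM, with none called. These 7 chaperone genes were higher in the same library in which the ATF4 targets Asns, Chac1 and Ddit3 were lower. In the authors' deposited table Hspa5 was 1 of 10 protein-coding genes marked as significant among 19 rows, with a q-value of 0.0445, which compares these 2 libraries and not the genotypes.

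The ER stress element, CCAAT followed after 9 bases of any kind by CCACG, was searched on both strands in the same 250 bases. It was found for 9 of 24 measured ER chaperone genes with a promoter (37.5%), against 0.130% of all genes. The 9 were Calr, Canx, Creld2, Derl3, Dnajc3, Hsp90b1, Hspa5, Pdia6 and Syvn1. All 9 lay above 0, with a median log2 difference of 0.88, against 0.53 over the 15 without it. The promoters of 3 called members are shown, with the match in capitals: Hspa5 (chr2:34771840-34772089, plus strand, 65 bases before the start), Calr (chr8:84846932-84847181, minus strand, 162 bases) and Derl3 (chr10:75893148-75893397, plus strand, 156 bases).
Hspa5: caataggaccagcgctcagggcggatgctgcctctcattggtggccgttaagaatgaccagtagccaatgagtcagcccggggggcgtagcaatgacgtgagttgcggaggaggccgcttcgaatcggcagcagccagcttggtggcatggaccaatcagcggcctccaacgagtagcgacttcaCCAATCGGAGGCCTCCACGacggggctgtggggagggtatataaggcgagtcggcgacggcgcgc
Calr: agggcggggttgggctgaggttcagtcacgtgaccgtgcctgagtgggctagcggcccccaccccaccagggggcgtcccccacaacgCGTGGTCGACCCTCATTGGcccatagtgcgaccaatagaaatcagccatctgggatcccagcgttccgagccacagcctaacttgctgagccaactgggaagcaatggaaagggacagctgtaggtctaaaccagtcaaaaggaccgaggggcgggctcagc
Derl3: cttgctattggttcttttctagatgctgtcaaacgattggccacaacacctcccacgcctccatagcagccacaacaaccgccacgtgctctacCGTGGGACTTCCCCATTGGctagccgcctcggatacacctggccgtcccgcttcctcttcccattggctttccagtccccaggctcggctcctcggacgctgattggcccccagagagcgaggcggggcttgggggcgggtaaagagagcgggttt
In Calr and Derl3 the match reads on the opposite strand, so it begins with CGTGG and ends with ATTGG. The shorter CCAAT, which the ER stress element contains, was present for 22 of the 24, but also for 37.5% of all genes. The second ER stress element, ATTGG followed after 1 base by CCACG, was found for 1 of the 24, Herpud1, with a log2 difference of 0.37.

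The other strings searched gave these counts. Of 18 cholesterol genes with a promoter none held the full sterol element and 1 held its core TCACNCCAC (1.22% of all genes), whereas 16 held CCAAT. Of 18 immediate early genes none held the AP-1 string TGANTCA (7.82% of all genes) and 3 held the CRE TGACGTCA (1.77%). The heat shock element was found for 3 of 41 cytosolic chaperone genes (7.32%), against 0.514% of all genes. Of 20 core and naive genes 2 held the octamer ATGCAAAT (1.81% of all genes), and the joint OCT-SOX string was in no promoter of the table. The TCF string CTTTGAT was found for 2 of 9 Wnt targets (3.72% of all genes) and the metal element TGCACAC for 4 of 23 metal-handling genes (4.19%). For 25 interferon-response genes the interferon element was found in 10 (3.46% of all genes) and the GAS string TTCNNNGAA in 6 (8.13%). For 19 MHC genes each of these 2 was found in 2, and CCAAT in 14. A missing string says only that these letters are not in this window.

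Cytosolic chaperones were higher in part. Of 48 measured genes 6 were called higher and 2 lower, so 16.7% were called, against 12.0% of all protein-coding genes. The median was 0.33. Dnajb9, the ER gene described above, is counted in both groups, and the other 5 higher genes were Hspa1a, Hspa1b, Hsp90aa1, Hsph1 and Dnaja1. The stress-inducible pair Hspa1a (0.434 and 7.06 FPKM) and Hspa1b (1.11 and 17.1 FPKM) are near-identical, so the split between them is uncertain, but both were higher. Hsp90aa1, the inducible Hsp90, was at 907 and 1924 FPKM and the heat shock protein gene Hsph1 at 31.8 and 88.05 FPKM. The cochaperone gene Dnaja1 was higher at 19.1 and 42.6 FPKM. The small heat shock protein gene Hspb2 was lower at 5.46 and 1.74 FPKM, and Hspb11, which in spite of its name is a cilium transport gene, was lower at 53.6 and 22.4 FPKM. The chaperonin subunit gene Cct4 had 597 and 500.4 FPKM.

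Redox genes were called in both directions, 4 higher and 7 lower of 52, with a median of -0.05. Glutathione peroxidases split: Gpx1 was higher at 135 and 313 FPKM and Gpx2 at 3.06 and 16.1 FPKM, while Gpx3, the secreted form, was lower at 27.2 and 6.86 FPKM. Gstm5 was lower at 24.3 and 8.46 FPKM and Nqo1, a target of the NRF2 factor, higher at 7.32 and 15.99 FPKM. In methionine metabolism, which supplies S-adenosylmethionine for methylation, Mat2a, the enzyme that makes it, was higher at 45.8 and 112 FPKM. Ahcy, which removes the product of methylation, was at 3.58 and 10.4 FPKM and Cth at 25.96 and 57.1 FPKM. Oaz1, the antizyme that limits polyamine synthesis, was lower at 410.3 and 109.7 FPKM, and added up with its copy it went from 555 to 253 FPKM. In the serine and folate group the receptor gene Folr1 was higher at 24.2 and 87.7 FPKM, whereas Psph (47.3 and 20.3 FPKM) and Gnmt (6.62 and 1.33 FPKM) were lower.

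Mitochondrial genes leaned lower in several complexes, and the share called differed between them. Of 34 complex I genes 1 was lower, Ndufa4l2 at 26.05 and 4.55 FPKM, and the median was -0.33. Ndufa4l2 is known as a hypoxia-induced gene rather than a core subunit. In complexes III and IV, where 28.1% of the genes were called, 7 of 32 were lower, led by Cox5b at 90.04 and 19.7 FPKM and the testis-type subunit gene Cox6b2 at 66.7 and 15.3 FPKM. Cycs, the cytochrome c gene, and Cox7b2 were higher, at 1.81 and 8.14 FPKM and 2.43 and 11.2 FPKM. For Cycs the long RNA log2 difference was 0.44, against 1.70 in mRNA, and for Cox7b2 it was 1.84, against 1.83. Of 19 ATP synthase rows 2 were lower and 1 higher. The lower ones were Atp5s (13.1 and 3.54 FPKM) and Atp5l2-ps (44.5 and 9.92 FPKM), whose name marks a pseudogene. Atp5g2 was higher at 6.12 and 17.0 FPKM, and the catalytic subunit gene Atp5b had 1729 and 2169.8 FPKM. Mitochondrial ribosomal proteins were called 3 times in 75, all lower, with a median of -0.31. The lowest of them, Mrpl23, lies near Igf2 on chromosome 7 and stood at 49.9 and 5.73 FPKM, and with its copy at 66.9 and 18.4 FPKM. In contrast, none of 28 genes of the tricarboxylic acid cycle and none of 25 of nucleotide synthesis was called.

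The cytosolic ribosomal proteins had many called members in both directions: 12 higher and 11 lower of 78, or 29.5%. Fau was lowest at 458 and 82.8 FPKM, followed by Rpl10a (684 and 179 FPKM), Rpl37 and Rpl31. Rps27 was highest at 9.10 and 86.4 FPKM, followed by Rps29 (19.5 and 146 FPKM), Rps6 and Rpl3. These genes have many processed copies in the mouse genome. On sums over named copies most of these differences were smaller: Rpl3 had a log2 difference of 2.45 alone and -0.03 with its copies, and Rps13, named after its values were seen, had 2.36 alone and -0.02 with them. Rpl10a had -1.93 alone and -0.55 with its copies. Rps27 and Rps29 were still higher on the sum, at 1.85 and 1.64.

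The same check over all protein-coding genes with a measured row named as their copy covered 128 genes and 262 copies. It was added after the values were seen, and copies with other names are not in it. Of the 128 genes, 29 were called (22.7%), against 12.0% of all protein-coding genes. On the sum with the copies, 14 of the 29 were still called in the same direction. Of the copies themselves, 99 were called (37.8%). Where a gene and a copy were both called, their directions were opposite in 16 of 31 pairs. A sum of FPKM adds values scaled to different lengths, so it is a description and not a level of 1 transcript. For Lars2, which encodes the mitochondrial leucyl-tRNA synthetase, the value was 465 and 2101 FPKM in mRNA, with a log2 difference of 2.17, but of 0.27 in long RNA.

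Genes that present antigens leaned lower. MHC class I molecules show peptides, cut by the immunoproteasome and carried by TAP, on the cell surface together with beta-2-microglobulin. The group also takes in some class II genes. Of 28 measured genes 12 were lower and 2 higher, with a median of -0.88 (long RNA -0.60). The class I gene H2-K1 was lower at 67.4 and 22.7 FPKM and B2m, the shared light chain, at 77.4 and 29.6 FPKM. The immunoproteasome genes Psmb8 (9.15 and 2.70 FPKM) and Psmb9 (4.10 and 1.36 FPKM) were lower. The transporter genes Tap1 (8.20 and 5.09 FPKM) and Tap2 (4.95 and 2.95 FPKM) were called neither. Several H2-Q genes were lower, but they are alike in sequence and can share reads. H2-M5 (6.30 and 22.7 FPKM) and H2-M6-ps (8.53 and 20.01 FPKM), which lie in another segment of the locus, were higher. Interferon-response genes, which overlap in their control, were lower in 9 of 30 and higher in none, while 13 had a difference above 0. Their median was -0.42 in mRNA and -0.08 in long RNA, and it was 0.01 over the 14 genes that reached 5 FPKM. Isg15 was at 7.11 and 0.278 FPKM and Bst2 at 191 and 45.5 FPKM, whereas Ifitm3 had 126 and 196 FPKM. Over all 45 measured proteasome genes 3 were lower and none higher. Psmb8 and Psmb9 were 2 of them, and the other was Psma3, a subunit of the constitutive core, at 172 and 39.4 FPKM.

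Part of the pluripotency genes and the genes of the epiblast and neural lineages leaned higher, and those of mesoderm, trophoblast and primitive endoderm did not. Of 28 core and naive pluripotency genes 10 were higher and none lower, with a median of 0.31 (long RNA 0.20). Higher ones were Sall4 (37.9 and 105 FPKM), Zfp296 (16.8 and 55.9 FPKM) and the F-box protein gene Fbxo15 (91.1 and 283 FPKM). Of the 10 ES cell markers checked, 1 was higher, Sall4, and 9 were called neither. The median of these markers was 0.13 in mRNA and -0.14 in long RNA. In the primed epiblast group 11 of 24 were higher, with Otx2 at 12.4 and 67.3 FPKM and Zic2 at 4.76 and 32.3 FPKM. The homeobox genes of the POU, LIM, PAX and related classes had 11 higher and 2 lower of 30. Meis2 (0.475 and 4.19 FPKM) was higher, while both lower ones were the caudal genes Cdx1 and Cdx2. The neural factors Pax6 (2.89 and 8.02 FPKM) and Sox3 (2.56 and 7.70 FPKM) were higher. Of 11 measured mesoderm genes 5 were lower and none higher, of 10 trophoblast genes 4 were lower and none higher, and of 13 primitive endoderm genes 5 were lower and 1 higher. These counts are not separate from each other or from earlier ones. Hand1 is in both the mesoderm and the trophoblast group. Fgf8 and Cdx2 are also Wnt targets, Krt7 is also a keratin and Col4a2 also a collagen chain. Hox genes were nearly silent, with 2 of 25 measured. In the ETS family, 4 genes were higher and 3 lower, with Ets1 lower at 4.64 and 1.22 FPKM and Etv6 higher at 4.93 and 11.8 FPKM.

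Zinc finger genes, the largest factor class, were mostly level. Of 278 measured genes with a Zfp name 16 were higher (5.76%) and 4 lower (1.44%), the first share close to that of all protein-coding genes. Zfp423 was higher at 3.86 and 14.4 FPKM and Zfp692 lower at 31.1 and 10.7 FPKM. BTB zinc finger genes had 6 higher and none lower of 34, Zbtb2 highest at 1.51 and 5.73 FPKM. In the SCAN group the 5 higher genes of 24 were all Zscan4 copies, such as Zscan4f at 3.61 and 27.8 FPKM. Usp17l genes (0.613 and 9.01 FPKM for Usp17lb) and the PRAME family gene Pramel7 (0.362 and 7.14 FPKM) were higher as well. These are clustered, near-identical genes, so their single values are uncertain. Elsewhere among the deubiquitinases, Usp7 was higher at 80.7 and 219 FPKM and Usp26 lower at 3.61 and 0.426 FPKM.

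Chromatin regulators leaned higher in mRNA, less so in long RNA. Of 21 genes for histone H3 lysine 4 methylation and its removal, 3 were higher, with the demethylase gene Kdm5b at 74.99 and 171 FPKM, and the median was 0.69 (long RNA 0.24). Remodelling complexes had 8 higher and 2 lower of 72. The shares called were 14.3% for the lysine 4 genes and 13.9% for the remodelling complexes, against 12.0% of all protein-coding genes. Arid4a (6.99 and 20.8 FPKM) and Ino80 (11.6 and 31.9 FPKM) were higher, and Bcl11a, a factor of neurons and blood, was higher at 0.773 and 9.37 FPKM. Of 32 Polycomb genes 4 were higher and 1 lower; their median was 0.15 in mRNA and -0.01 in long RNA. Pcgf1 was the lower one, at 5.52 and 2.09 FPKM, whereas Bmi1 was higher at 0.713 and 7.38 FPKM, Rybp at 6.79 and 18.7 FPKM and Kdm2b at 20.9 and 52.8 FPKM. The core subunit gene Suz12 had 154 and 159 FPKM. None of 29 heterochromatin genes was called although 24 lay above 0. Among 29 genes of DNA methylation and its readers 5 were higher and 2 lower. The lower ones were Gadd45a (46.9 and 19.2 FPKM) and Gadd45b (24.3 and 10.2 FPKM), stress-induced genes linked to demethylation. The de novo enzymes Dnmt3b (38.99 and 94.8 FPKM) and Dnmt3a (31.1 and 70.6 FPKM) were among the higher ones, and their cofactor gene Dnmt3l had 107 and 82.7 FPKM.

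Histone genes were higher in 16 of 67 and lower in 2, but their median was 0.35 in mRNA and -0.41 in long RNA. Of the 18 called, 12 had the same sign in long RNA. Most histone genes are replication-dependent and make mRNAs without a poly(A) tail, so their poly(A)-selected level measures a small part of their RNA. Hist1h2ah, highest in mRNA at 0.126 and 4.56 FPKM, had a long RNA log2 difference of -0.38. The replacement histone genes H3f3b (180.4 and 205 FPKM) and H2afz (187 and 169 FPKM), which are polyadenylated, were called neither.

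Cell division and nuclear maintenance were nearly level. Among 52 replication genes 1 was called, Pold4, lower at 9.38 and 3.85 FPKM. Of 83 repair genes 3 were higher and 1 lower, with Ercc3 at 35.4 and 82.2 FPKM. Of 29 spindle genes 1 was lower, the meiotic kinase gene Aurkc at 9.14 and 3.04 FPKM. Cyclins and their kinases had 5 higher and 1 lower of 58. Ccne2, which drives entry into S phase, was higher at 6.16 and 15.7 FPKM, and the kinase gene Wee1 at 21.2 and 46.9 FPKM. The imprinted inhibitor gene Cdkn1c was lower at 15.7 and 5.61 FPKM. p53 and apoptosis genes were called once in each direction among 32.

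RNA-handling genes were also mostly level, with single exceptions. Of 63 splicing factors 2 were higher: Celf2, described above, and Ptbp2, the neural form of the polypyrimidine tract protein, at 11.9 and 41.1 FPKM. Ptbp2 was higher in long RNA too, by 1.52 on the log2 scale. Of 66 decay genes both higher ones were deadenylases of the CCR4-NOT complex, Cnot6 at 38.2 and 101 FPKM and Cnot6l at 4.03 and 12.7 FPKM. That complex is the one that microRNA-bound scaffolds recruit. The helicase gene Ddx3x was higher at 121 and 343 FPKM. Nuclear import had 4 higher genes of 41 (9.76%), with Kpna2, an importin alpha of ES cells, at 18.9 and 84.4 FPKM. On the sum with its copy Kpna2 was still higher. In ribosome biogenesis 3 of 30 genes were higher: Polr1b (27.1 and 55.9 FPKM) and Rrn3 (70.3 and 155 FPKM), which act in rRNA transcription, and Utp20 (17.97 and 37.4 FPKM). Fbl, the rRNA methylase gene, was the only lower one, at 186 and 53.96 FPKM. The share of ribosome biogenesis genes called was 13.3%, against 12.0% of all protein-coding genes.

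In lysosomes 7 of 46 genes were lower and 3 higher. The hydrolase genes Hexa (46.3 and 10.6 FPKM) and Neu1 (19.6 and 5.93 FPKM) and the cathepsin gene Ctsl (133 and 64.8 FPKM) were lower. The proton pump subunit genes split, with Atp6v0b lower at 129 and 48.97 FPKM and Atp6v0c higher at 2.08 and 16.1 FPKM. Solute carriers had 11 higher (5.26%) and 18 lower (8.61%) of 209. The metal carrier gene Slc39a8 was lowest, at 3.68 and 0.167 FPKM. Ion channels were called in 5 and G protein-coupled receptors in 2 of 56 and 34 measured genes. The reproductive and MAGE genes had 5 lower and none higher of 37, so 13.5% were called, against 12.0% of all protein-coding genes. Rhox5, a homeobox gene on the X chromosome, was lowest at 54.9 and 6.49 FPKM.

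A pair of features of the genes themselves moved with the differences, and the choice of rows used neither. By genomic span, the distance from start to end of the row, the median log2 difference went from -0.19 in the shortest of 5 equal classes (median span 5.48 kb) to 0.24 in the longest (141 kb). In long RNA the same medians were -0.16 and 0.08. The share called lower was 12.3% in the shortest and 2.95% in the longest class. The share called higher was 7.38% in the shortest, 2.90% in the next and 9.29% in the longest. Each difference was also centred on the median of genes of like span, in 20 bins. The medians of the ER chaperones (0.71), glycolysis (-0.64), cholesterol synthesis (-0.51) and MHC genes (-0.78) had the same sign as before, whereas that of the ribosomal proteins went from -0.25 to -0.08.

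**Figure D5:**
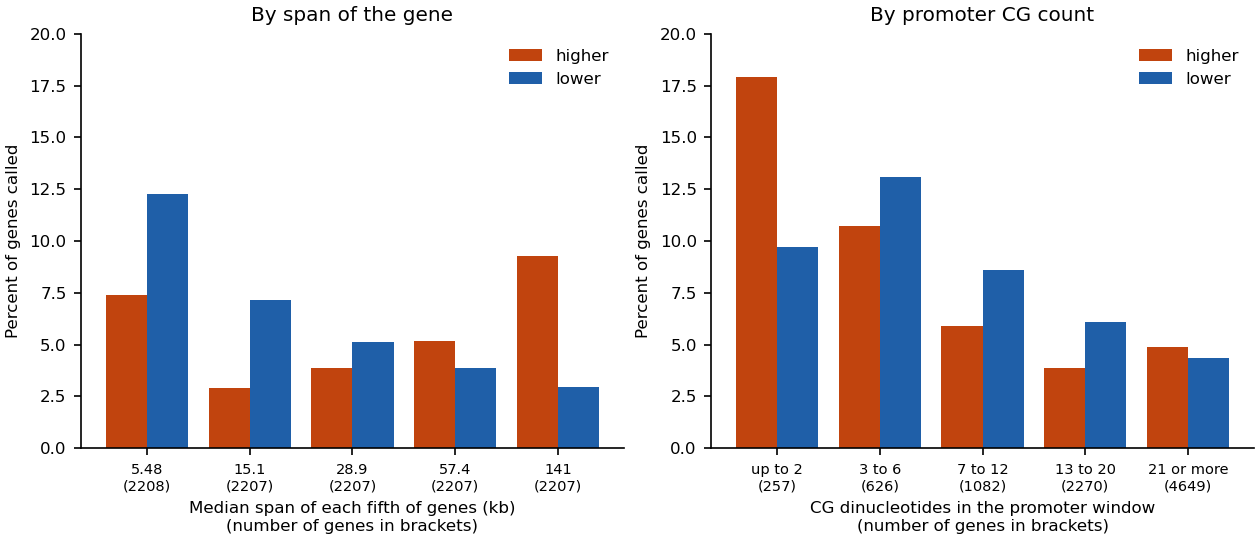
The left panel gives the percent of protein-coding genes called higher and lower in 5 equal classes of genomic span, labelled by the median span in kb. The right panel gives the same by the number of CG dinucleotides in the promoter window of 300 bases, with the number of genes in brackets under each group. Short genes were called lower most often (12.3%), and genes with up to 2 CG were called higher most often (17.9%).

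The other feature was the number of CG dinucleotides in the promoter, counted from 250 bases before to 50 bases after the RefSeq start for the 8884 protein-coding genes that have one in the table. Of 257 genes with at most 2 CG, 17.9% were higher and 9.73% lower. Of 4649 genes with 21 or more CG, 4.86% were higher and 4.35% lower. The groups between them had 10.7%, 5.91% and 3.88% higher genes, in order of increasing CG count. Level moved with the CG count, since the median of the mean FPKM was 3.75 in the group with fewest and 14.7 in that with most CG. The part of level in the larger shares called, in both directions, for CG-poor promoters was not tested. Methylation of these promoters was not analysed here. By chromosome the medians over protein-coding genes ran from -0.09 on chromosome 7 to 0.12 on chromosome 13 among the autosomes. The share called lower was highest on chromosome 17 (10.9%). That chromosome carries the H2 genes of the MHC, and their part in this share was not tested.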

How the data were processed

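The series holds 12 samples; the wild-type and Drosha-deficient mRNA libraries were compared here, with 1 library each, and the Dnmt1-deficient, short RNA and methylation samples were not analysed here. By the protocols in the labels, RNA was extracted with Trizol, fractionated with a miRVana kit, selected with an oligo-dT kit and made into libraries with a NEBNext small RNA protocol. Not given in the sources used here are the annotation, the scaling of library sizes and any use of strand in counting. The authors deposited a cuffdiff table with an FPKM value per gene and library. Its p-values and q-values, per the file headers, are the authors' own and were used only to name the rows they mark. The submitters' processing notes name bcl2fastq 1.8.4, TopHat2 2.0.10, Cufflinks 2.1.1, Cuffdiff without a version and the builds mm10 and GRCm38. FPKM carry no read counts, so the depths given are estimates from the steps between low values.

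From the deposited FPKM, log2 differences were computed with a pseudocount of 1, which understates differences of low genes. Python 3.11.15, pandas 2.3.3, numpy 2.4.6 and matplotlib 3.10.9 were used, and the computation was tested on simulated data. Symbols of 13059 of 14752 measured rows (88.5%) matched the RefSeq gene table. Members were grouped into 125 lists. The members and lists were chosen with earlier results of these data known. Named genes were Drosha, Dgcr8 and Dicer1, the 15 highest and 15 lowest protein-coding genes, and the 10 of highest wild-type level. In each list they were all called members (up to 8, otherwise the 4 highest and 4 lowest), the 3 of highest wild-type level, and defining genes of a pathway given for context; other genes were chosen after their values were seen, among them those near the minimum or the size rule. Searches for 17 motif strings covered 250 bases before the start in 32851 promoters (RefSeq, GRCm38.p6). Sums with rows named as copies, and centring within 20 bins of span, were added after the values were seen. The long RNA table was normalized separately and matched to the total RNA samples by elimination. Alternatives were other pseudocounts, minimums, scalings and a lower size rule.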

Additional observations from a re-analysis of the deposited data

How the results depend on the processing

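As reported, 1275 rows were higher and 1170 lower, and the median over all measured rows was 0.0081. A pseudocount of 0.1 gave 1744 higher and 1884 lower rows with a median of 0.0095, and a pseudocount of 5 gave 551 and 373 with a median of 0.0057. A minimum of 5 FPKM gave 960 and 779 with a median of 0.050. At a 1.5-fold size rule the counts were 2798 and 2857. Without a minimum the counts were as reported and the median was -0.0100, and with all rows not marked failed the median was 0.0081. Scaled to the same 75th percentile the counts were 1128 and 1318 with a median of -0.064. Centring on the median gave 1257 and 1195, and centring within bins of span, chosen after seeing the data, gave 1179 and 1138. Of 68 lists with a median of at least 0.2 in size, 3 changed sign without a minimum: Hox genes, integrins and keratins, the last from -1.60 to 0.12 with 12 genes in place of 7. At a minimum of 5 FPKM 2 of 65 did, interferon-response genes and ion channels, and none did under the other alternatives. The cause of these shifts was not tested, apart from the number of genes taken in. Low values limit the precision, since 1 fragment at 1 kb was worth 0.0464 (wild type) or 0.0413 FPKM. No paired analysis was possible because each genotype had 1 library.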
